A study of Mus musculus with 6 samples.

Results

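The subunits that define canonical Polycomb repressive complex 1 (PRC1) were followed in mouse embryonic stem cells depleted of Rybp, of Yaf2 or of both. They are the 9 genes Cbx2, Cbx6, Cbx7, Cbx8, Phc1, Phc2, Phc3, Bmi1 and Pcgf2, taken as every array probe set annotated to one of them and to no other gene, which gave 18 of the 45037 probe sets measured, or 9 of 18193 named genes. The members were chosen by name, for their place in the complex. Expression was read on 6 Affymetrix arrays, 1 for each of 3 clones with and without 4-hydroxytamoxifen (OHT), which the labels give as the agent that depletes Rybp, at 0.8 µM for 24 hours. The Yaf2kd OHT+ group holds 2 arrays, from clones 3086 and 3087, with reduced Yaf2 and depleted Rybp. The Yaf2wt OHT+ group holds 1 array, from clone 3031, with intact Yaf2 and depleted Rybp. The Yaf2kd OHT- group holds 2 arrays and the Yaf2wt OHT- group 1 array, from the same clones without the treatment. All clones are of a 129/B6 hybrid background and grew in serum with leukaemia inhibitory factor, on irradiated embryonic fibroblasts or on gelatin; the surface of each culture is not given. Some labels call the Yaf2kd cells knockdown and others mutant. The OHT- cells are labelled nontreated, so an effect of the drug itself and an effect of losing Rybp cannot be told apart. Yaf2wt is a single clone, so Yaf2 status and clone cannot be told apart either. The OHT+ and OHT- arrays of a clone share a cell line, so the p-values reflect no more than the spread among these 6 arrays.

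PRC1 is built on a RING1 ubiquitin ligase paired with a PCGF protein. In the canonical form the PCGF protein is MEL18 (encoded by Pcgf2) or BMI1, and the complex also holds a CBX protein, whose chromodomain reads the methyl mark left on histone H3 by Polycomb repressive complex 2 (PRC2), and a PHC protein, whose SAM domain can join complexes into larger assemblies. RYBP and YAF2 occupy the place of the CBX protein, so that complexes holding them, the variant forms, lack CBX and PHC proteins. Variant complexes carry out most of the ubiquitination of histone H2A in embryonic stem cells, where CBX7 is the main canonical CBX protein.

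The targeted genes were read first. The 2 probe sets for Rybp also carry the name of a pseudogene, Rybp-ps. One, 1421111_at, averaged 85.8 ± 27.7 intensity units in OHT+ arrays and 2014 ± 239 in OHT- arrays (SD, n = 3 each), while the other, 1428219_at, averaged 3162 ± 332 in OHT+ arrays and 242 ± 82.4 in OHT- arrays. Both separate the OHT+ from the OHT- arrays, in opposite directions, and neither gives the amount of Rybp transcript that remained. For Yaf2 the brightest probe set averaged 276 ± 27.2 in Yaf2kd arrays (n = 4) and 793 ± 33.6 in Yaf2wt arrays (n = 2). All 10 embryonic stem cell markers lay above the array median of 102.2 on every array, as did 5 of the 14 fibroblast markers measured. The sum of the stem cell markers was 104799 to 110333 in OHT+ arrays and 95460 to 101439 in OHT- arrays, which do not overlap. In the OHT effect 0 of 10 passed and 8 were above 0, Klf4 and Nanog furthest, at 0.90 and 0.42 (log2). The other 2, Pou5f1 and Utf1, were at -0.18 and -0.27 (log2). In the Yaf2 effect 3 of the 10 were above 0 and 7 below, Klf4 furthest at -0.68 (log2), and 0 passed. Of the 14 fibroblast markers 12 were above 0 in the OHT effect and 2 below (median 0.34, log2), and 0 passed. Among all 18193 genes 8999 were above 0. Pdgfrb was the furthest of the 14 from 0, at 1.34, and Twist1 was the lowest, at -0.26 (log2). The sum of the fibroblast markers was 5189 to 8284 in OHT+ arrays and 4395 to 6149 in OHT- arrays. By Yaf2 status it was 6001 to 8284 in Yaf2kd arrays and 4395 to 5189 in Yaf2wt arrays, which do not overlap. Acta2, a smooth muscle actin, makes up most of that sum, and without it the sum was 2047 to 2849 in Yaf2kd arrays and 1685 to 1998 in Yaf2wt arrays. By OHT status the sum without Acta2 was 1998 to 2849 in OHT+ arrays and 1685 to 2080 in OHT- arrays. Of the fibroblast markers Lum, Dcn and Fap lay below the array median on every array. Of the 6 differentiation markers measured 3 lay above that median on every array. In the OHT effect 2 of the 6 were above 0 and 4 below, and 0 passed. Pax6 and Nes were the furthest of them from 0, at -0.68 and -0.63 (log2). The part of these marker differences in the results below was not tested.

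Values are linear intensity, and the brightest probe set by mean log2 stands for a gene. Intensities of different probe sets are not compared with each other. Of the 18 probe sets 11 lay above the array median on every array and 4 on none. Both Cbx8 probe sets are among these 4, so Cbx8 has no bright measurement here. Phc1 has 1 probe set, Cbx7 has 3 and each other gene 2. In bulk samples fewer cells that express a gene and less RNA per cell cannot be told apart.

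The 5′ flanks of 6 of the genes share letters that the choice of members did not use. RefSeq windows of the 250 bases before an annotated start (build GRCm38.p6) were at hand for 8 of the 9 genes, in 10 windows because Phc2 has 3 starts. They were searched on both strands for CACGTG, an E-box bound by MAX dimers, among them the MGA and MAX pair of a RYBP-containing variant complex, and for TTCCCGC, letters of E2F sites. CACGTG was found in 6 of the 10 windows, in 6 genes, against 6.02% of all 32851 windows. It was found in 9.94% of the 7728 windows with at least as many CG pairs as the median member window (16.5). The matching windows of Phc3, Phc2 and Pcgf2 hold fewer CG pairs than that, at 12, 13 and 5. TTCCCGC was found in 0 of the 10, against 3.82% of all windows and 10.0% of those rich in CG pairs. A match is a description of these letters and not a measured site. A link between a match and the OHT effect below was not tested. The 60 bases around the match are shown for all 6 genes. Capitals mark CACGTG, and each line reads 5′ to 3′ on the strand of the gene.
Bmi1, chr2:18676776-18676835, plus strand: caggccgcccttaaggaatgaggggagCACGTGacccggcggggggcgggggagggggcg
Phc2, chr4:128654618-128654677, plus strand: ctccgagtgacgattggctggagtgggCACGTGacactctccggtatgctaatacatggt
Cbx6, chr15:79834334-79834393, minus strand: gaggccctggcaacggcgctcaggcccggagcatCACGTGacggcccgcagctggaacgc
Phc3, chr3:30969465-30969524, minus strand: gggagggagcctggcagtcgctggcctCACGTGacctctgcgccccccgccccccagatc
Pcgf2, chr11:97699753-97699812, minus strand: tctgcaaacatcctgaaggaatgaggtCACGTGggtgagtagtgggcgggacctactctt
Cbx8, chr11:119040979-119041038, minus strand: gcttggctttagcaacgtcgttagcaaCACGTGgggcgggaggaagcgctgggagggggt
The match begins 26 bases before the start in Cbx6, 57 in Phc2, 82 in Phc3, 98 in Cbx8, 137 in Pcgf2 and 215 in Bmi1. The windows of Phc1 and Cbx7 and the 2 other Phc2 starts hold no CACGTG. Which Phc2 start is used in these cells was not tested.

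The OHT effect asks whether the cells that lost Rybp differ in the RNA of the subunits RYBP excludes. Phc2 was the member with the clearest difference, higher in OHT+ cells by 0.63 (log2; adjusted p 0.0889), and Bmi1, at -0.59 and -0.91 by its 2 probe sets, was the furthest in the other direction. Cbx6 was at -0.27 and Phc3 at -0.30 by their brightest probe sets. The other members lay within 0.30 of no difference by their brightest probe sets. In limma with an intensity trend 0 of the 18 probe sets passed an adjusted p of 0.05, where 0.14% of all probe sets did (0.115% higher and 0.0244% lower with OHT), and 5 of 18 had an unadjusted p under 0.05, against 7.99% of all. Among probe sets above the array median on every array, 4 of 11 members had such an unadjusted p, against 2182 of all 19556. Without the trend 0 probe sets of any gene passed, and 2 of 18, both of Phc2, had an unadjusted p under 0.05, against 6.56% of all.

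**Figure D1:**
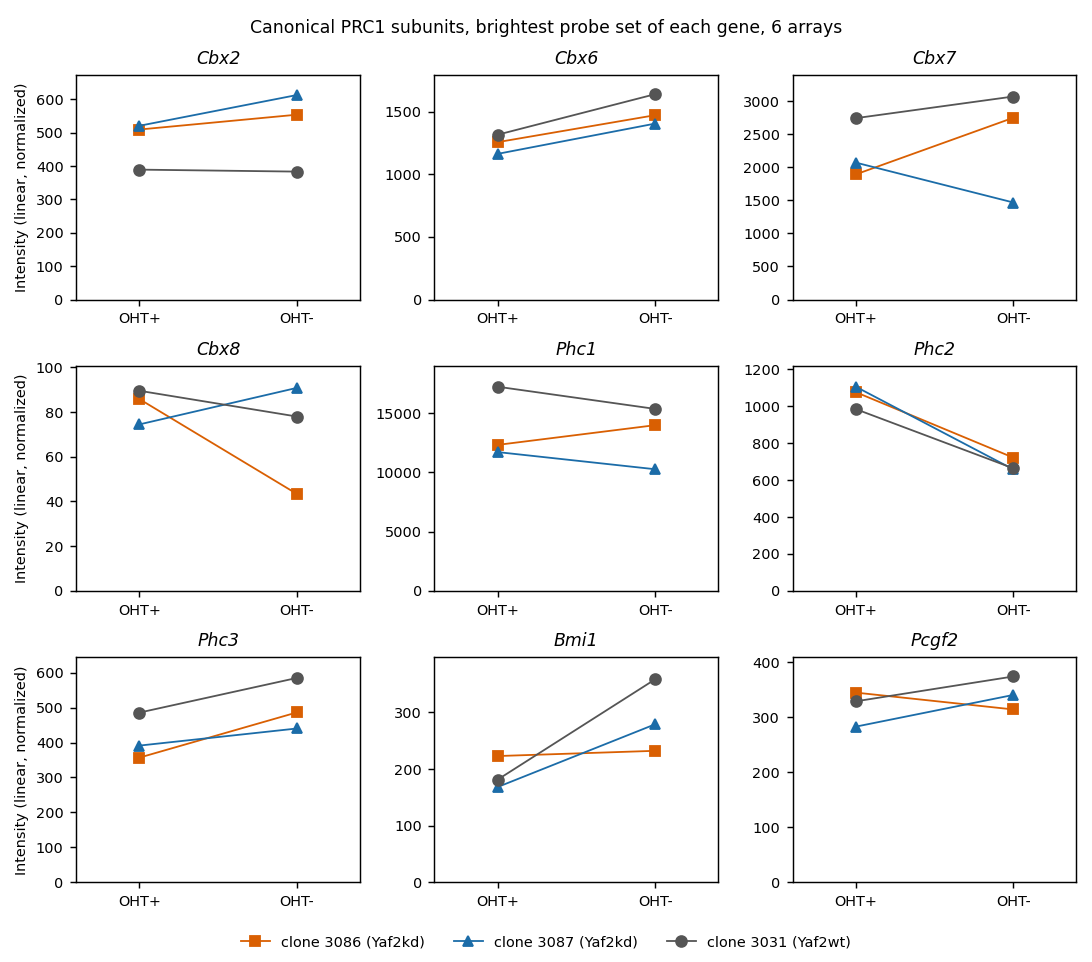
Normalized linear intensity (vertical axes, from 0) of the brightest probe set of each of the 9 genes on the 6 arrays, by OHT status (horizontal axes); a line joins the arrays of 1 clone. The 3 OHT+ arrays lie above the 3 OHT- arrays for Phc2, at 984 to 1105 against 658 to 721, and below them for Bmi1 and Cbx6.

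Phc2, one of the PHC proteins, read 1076 and 1105 in Yaf2kd OHT+ cells and 984 in Yaf2wt OHT+ cells, against 721 and 658 in Yaf2kd OHT- cells and 664 in Yaf2wt OHT- cells, by probe set 1437239_x_at. All 3 OHT+ arrays lay above all 3 OHT- arrays, with means of 1055 ± 63.2 and 680.9 ± 35.2 (SD, n = 3 each). Clone by clone the log2 difference was 0.57 (3031), 0.58 (3086) and 0.75 (3087). Over the clones it was 0.63 ± 0.11 (SE), a 1.55-fold higher level with a 95% interval of 1.31 to 1.83, and its adjusted p of 0.0889 missed the threshold. With 1 probe set a gene, which adjusts over fewer tests, the adjusted p was 0.0474.

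The other Phc2 probe set, 1416048_at, read 905 and 872 in Yaf2kd OHT+ cells and 768 in Yaf2wt OHT+ cells, against 732 and 531 in Yaf2kd OHT- cells and 540 in Yaf2wt OHT- cells. Its groups did not overlap either, and its difference was 0.51 ± 0.14 (log2 ± SE, adjusted p 0.340). Both Phc2 probe sets therefore lay on the same side, in all 3 clones.

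Bmi1 encodes the PCGF protein best known for repressing the Ink4a locus in stem cells. Its brightest probe set, 1417493_at, read 223 and 168 in Yaf2kd OHT+ cells and 181 in Yaf2wt OHT+ cells, against 232 and 279 in Yaf2kd OHT- cells and 358 in Yaf2wt OHT- cells. The OHT+ arrays lay below the OHT- arrays, but clone 3086 was almost level, at -0.06, where clone 3031 was at -0.98 and clone 3087 at -0.73 (log2). Over the clones the difference was -0.59 ± 0.22 (SE), with a 95% interval of -1.08 to -0.10 and an adjusted p of 0.538. With each array left out in turn it ran from -0.76 to -0.39.

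The second Bmi1 probe set, 1448733_at, read 76.3 and 60.2 in Yaf2kd OHT+ cells and 69.9 in Yaf2wt OHT+ cells, against 149 and 77.1 in Yaf2kd OHT- cells and 187 in Yaf2wt OHT- cells. Its OHT+ arrays also lay below its OHT- arrays, but all 3 OHT+ values and 1 OHT- value were under the array median, so the size of its difference, -0.91 ± 0.37 (log2 ± SE, adjusted p 0.588), is uncertain. The order of the clones was not the same in the 2 probe sets: clone 3086 was at -0.97 and clone 3087 at -0.36 here. The other PCGF gene, Pcgf2, whose product MEL18 is the paralogue of BMI1, averaged 319 ± 32.1 in OHT+ arrays and 343 ± 30.1 in OHT- arrays (SD, n = 3 each), which overlap. Its difference was -0.11, with a 95% interval of -0.47 to 0.25 (log2).

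Cbx6, a CBX protein gene, showed a small difference that was alike in every clone. Its brightest probe set, 1424407_s_at, read 1257 and 1163 in Yaf2kd OHT+ cells and 1316 in Yaf2wt OHT+ cells, against 1473 and 1405 in Yaf2kd OHT- cells and 1640 in Yaf2wt OHT- cells. The groups did not overlap, and the clones were at -0.32 (3031), -0.23 (3086) and -0.27 (3087) on the log2 scale. The fitted difference was -0.27 ± 0.09 (SE, adjusted p 0.504). The second Cbx6 probe set, 1429290_at, was at -0.23, -0.24 and -0.20 in the same clones, with groups that overlap because the clones start from different levels.

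Cbx7, the main canonical CBX gene of these cells, showed no shared direction. By its brightest probe set, 1433557_at, it read 1892 and 2071 in Yaf2kd OHT+ cells and 2743 in Yaf2wt OHT+ cells, against 2749 and 1467 in Yaf2kd OHT- cells and 3071 in Yaf2wt OHT- cells. The Yaf2kd clones lay on opposite sides of 0, clone 3086 at -0.54 and clone 3087 at 0.50 (log2). Probe set 1420039_s_at did not repeat that split: clones 3086 and 3087 were at -0.12 and 0.02, with an OHT effect of -0.06 and a 95% interval of -0.32 to 0.20. The third Cbx7 probe set lay below the array median on every array.

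Cbx2, which can compact chromatin, was at -0.11 with OHT by its brightest probe set (95% interval -0.41 to 0.18, log2). Its dim probe set, 1422059_at, was at 0.10 with an interval of -0.84 to 1.03. Cbx8 was at 0.30, with an interval of -0.60 to 1.19, and its signal was too dim to place it more closely.

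Phc1, the PHC gene long used as a marker of the pluripotent state, averaged 13762 ± 3027 in OHT+ arrays and 13209 ± 2635 in OHT- arrays (SD, n = 3 each), which overlap. Its difference was 0.06, with a 95% interval of -0.19 to 0.31 (log2), so a change of the size seen in Phc2 lies outside that interval. Phc3 read 357 and 391 in Yaf2kd OHT+ cells and 486 in Yaf2wt OHT+ cells, against 486 and 440 in Yaf2kd OHT- cells and 585 in Yaf2wt OHT- cells, by probe set 1455312_at. Each clone was lower with OHT, at -0.27, -0.45 and -0.17 in clones 3031, 3086 and 3087, and the fitted difference was -0.30 ± 0.13 (log2 ± SE, adjusted p 0.629). The dim Phc3 probe set, 1443651_at, was at 0.59 ± 0.40, with clone 3087 at -0.065. Its difference ran from 0.31 without either Yaf2wt array to 0.98 without the OHT- array of clone 3087, so it gives no firm direction.

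**Figure D2:**
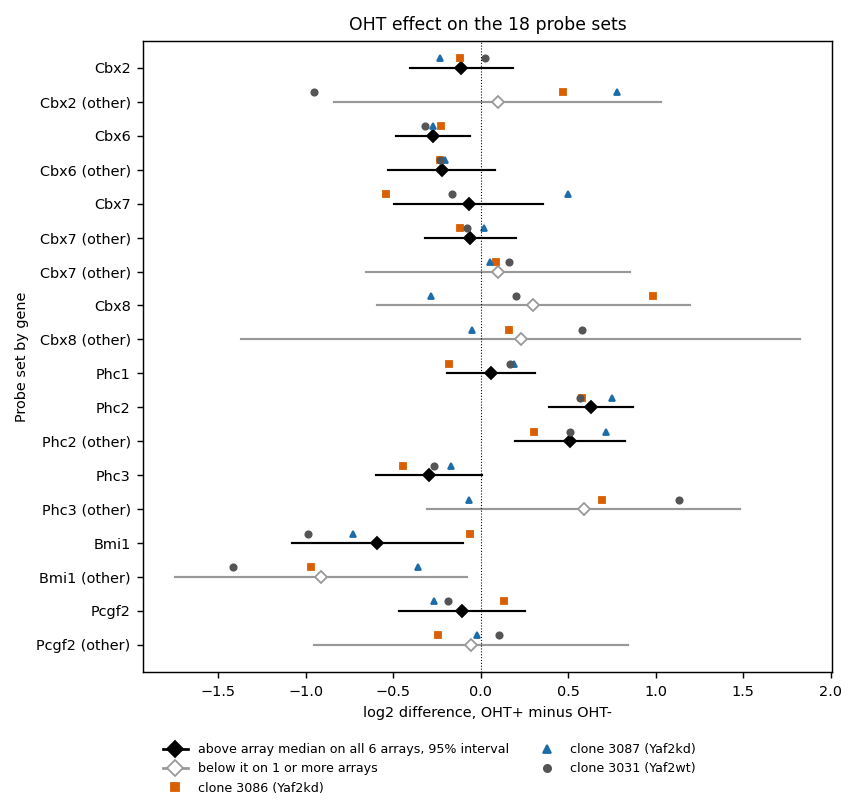
OHT effect (log2 difference, OHT+ minus OHT-, horizontal axis) of the 18 probe sets; diamonds and bars are the limma estimate and its 95% interval, small symbols the 3 clones, and open grey diamonds mark probe sets below the array median on 1 or more arrays. The 2 Phc2 probe sets lie at 0.63 and 0.51, the 2 Bmi1 probe sets at -0.59 and -0.91.

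Counted over the probe sets, the OHT+ and OHT- arrays did not overlap for 5 of 18, where 12.5% of all probe sets did not overlap. OHT+ was higher for 2 of these, both of Phc2 (6.13% of all), and lower for 3, both of Bmi1 and the brighter one of Cbx6 (6.4% of all). Among the probe sets above the array median on every array it was 4 of 11, against 14.4%. By brightest probe set, which counts each gene once, it was 3 of the 9 genes, against 2651 of all 18193. All 3 clones lay on the same side for 8 of 18, against 31.3% of all probe sets: 5 were lower with OHT (16.2% of all) and 3 higher (15% of all). The median difference of the 18 was -0.057 (log2), and that of all probe sets -0.0073.

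The Yaf2 effect sets the 4 Yaf2kd arrays against the 2 Yaf2wt arrays, with OHT taken into account, and asks whether the subunits differ where Yaf2 is reduced. In limma 0 of 18 probe sets passed, where 0% of all probe sets did (0 of 45037, and 0 without the trend). The Yaf2 probe sets themselves, at -1.52 and -1.41 (log2), had adjusted p of 0.163 and 0.167. An unadjusted p under 0.05 was found for 6 of the 18 with the trend, against 8.95% of all, and for 2 of the 18 without it, against 6.69% of all. With the trend it was found for 5 of the 11 above the array median on every array, against 2762 of all 19556. By their brightest probe sets Cbx2 was higher in Yaf2kd cells, and Phc1, Cbx7 and Phc3 were lower. All of these differences are between clones as much as between Yaf2 levels.

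Cbx2 read 510 and 521 in Yaf2kd OHT+ cells and 554 and 613 in Yaf2kd OHT- cells, against 389 in Yaf2wt OHT+ cells and 383 in Yaf2wt OHT- cells. All 4 Yaf2kd arrays lay above both Yaf2wt arrays. The difference was 0.50 ± 0.14 (log2 ± SE), 1.42-fold with a 95% interval of 1.14 to 1.76 and an adjusted p of 0.371. The dim Cbx2 probe set was at 0.04 with an interval of -0.95 to 1.03, wide enough to hold both that difference and none.

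Phc1 read 12325 and 11720 in Yaf2kd OHT+ cells and 13991 and 10271 in Yaf2kd OHT- cells, against 17239 in Yaf2wt OHT+ cells and 15364 in Yaf2wt OHT- cells. All 4 Yaf2kd arrays lay below both Yaf2wt arrays, and the difference was -0.44 ± 0.12 (log2 ± SE, adjusted p 0.366).

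Cbx7 read 584 and 581 in Yaf2kd OHT+ cells and 634 and 572 in Yaf2kd OHT- cells, against 747 in Yaf2wt OHT+ cells and 789.7 in Yaf2wt OHT- cells, by probe set 1420039_s_at. All 4 Yaf2kd arrays lay below both Yaf2wt arrays, with a difference of -0.37 ± 0.12 (log2 ± SE, adjusted p 0.443). Its brightest probe set was at -0.54 ± 0.20, but there the Yaf2kd clone 3086 without OHT, at 2749, reached the Yaf2wt arrays, and the difference ran from -0.73 without that array to -0.34 without the OHT- array of clone 3087. Both bright Cbx7 probe sets thus lay on the same side, and the dim one, at 0.22 ± 0.36, on the other.

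Phc3 averaged 419 ± 56.6 in Yaf2kd arrays (SD, n = 4) and 535 ± 70.2 in Yaf2wt arrays (n = 2), with a difference of -0.36 ± 0.14 (log2 ± SE, adjusted p 0.519). Its values overlap narrowly, since clone 3086 without OHT read 486.3 where the Yaf2wt OHT+ array read 485.7. One Cbx8 probe set, 1419199_at, averaged 11.1 ± 3.48 in Yaf2kd arrays and 44.1 ± 12.4 in Yaf2wt arrays, all under the array median, so its difference of -2.02 ± 0.76 (log2 ± SE) has an uncertain size, and the brighter Cbx8 probe set was at -0.24 ± 0.42. Bmi1, Pcgf2, Cbx6 and Phc2 were at -0.20, -0.13, -0.16 and 0.10 by their brightest probe sets, each with an interval that holds 0.

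**Figure D3:**
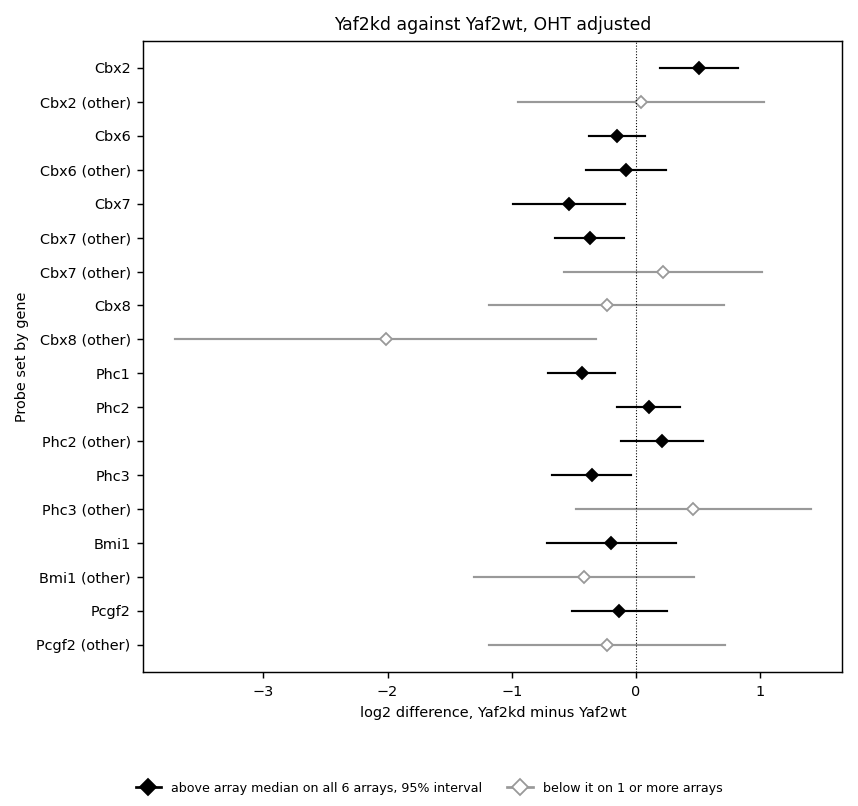
Yaf2 effect (log2 difference, Yaf2kd minus Yaf2wt with OHT adjusted, horizontal axis) of the 18 probe sets, as the limma estimate and its 95% interval; open grey diamonds mark probe sets below the array median on 1 or more arrays. Cbx2 lies at 0.50 by its brightest probe set, Phc1 at -0.44 and the bright Cbx7 probe sets at -0.54 and -0.37.

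The 4 Yaf2kd arrays did not overlap the 2 Yaf2wt arrays for 6 of the 18 probe sets, against 18.2% of all, and for 3 of the 11 above the array median on every array, against 23%. In that last set the share is near the background. By brightest probe set it was 2 of the 9 genes, against 3370 of all 18193. The median Yaf2 difference of the 18 was -0.18 (log2), with 12 lower and 6 higher in Yaf2kd cells, and that of all probe sets 0.0020. Of all 45037 probe sets 22409 were lower in Yaf2kd cells.

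Whether the OHT effect differs with Yaf2 status was tested as the OHT difference in the Yaf2kd clones minus that in the Yaf2wt clone. In limma 0 of 18 probe sets passed, as did 0% of all probe sets (0 of 45037, and 0 without the trend), and 0 of 18 had an unadjusted p under 0.05 with the trend, against 2.39% of all. Without it 1 of 18, the dim Cbx2 probe set, did, against 5.08% of all. For Phc2 the difference of effects was 0.09, with a 95% interval of -0.51 to 0.69 (log2). For Bmi1 it was 0.59, with an interval of -0.50 to 1.68: the OHT difference was -0.39 in Yaf2kd cells and -0.98 in the Yaf2wt clone. For Phc1 it was -0.16, with an interval of -0.77 to 0.44. For each of these 3 genes the interval is wider than the OHT effect is large. The Yaf2wt clone lay on one side of 0 and both Yaf2kd clones on the other for 3 of 18 probe sets, against 21.4% of all.

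The genes around the canonical subunits were read from lists named by their place in the Polycomb system. Of the 4 other genes measured that were listed with the canonical complex, Ring1, a ligase gene, was at -0.23 in the OHT effect. The RING1 ligases belong to the canonical and the variant forms alike. Scml2, a Sex comb on midleg homologue, was at 0.91 ± 0.39 (log2 ± SE) from a level that crossed the array median. Of these 4 genes 0 passed in either direction in the OHT, Yaf2 or difference comparison. Of the 23 variant PRC1 genes measured by a probe set of 1 gene, 0 passed in either direction in any of the 3 comparisons. Rybp is not among these 23, because its 2 probe sets also carry the name Rybp-ps. Both of them passed in the OHT effect, at -4.61 and 3.75 (log2, limma adjusted p 1.12e-04 each). Bcor, a scaffold of the complex with PCGF1, was at 0.61 (adjusted p 0.0935) and Kdm2b, its CpG-binding subunit, at -0.45 (adjusted p 0.177) in the OHT effect. The median OHT difference was 0.05 over the variant genes, -0.11 over the canonical members by brightest probe set and -0.0036 over all genes (log2).

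Of the 12 PRC2 genes 0 passed in either direction in any of the 3 comparisons. In the OHT effect 9 were higher and 3 lower, with a median of 0.12, where 8999 of all 18193 genes were higher. Epop was furthest, at 0.47 (limma adjusted p 0.299), and Phf1, an accessory subunit, was at -0.38. In the Yaf2 effect 9 were lower and 3 higher, with a median of -0.11, where 8223 of all 18193 genes were lower. Suz12, a core subunit, was at -0.50 (limma adjusted p 0.232) and Phf19, an accessory subunit, at 0.37. Both effects come from the same 6 arrays. The Ink4 genes, which Bmi1 and Cbx7 are known to repress, were at 0.10 (Cdkn2a, below the array median on every array) and 0.060 (Cdkn2b) in the OHT effect, and 0 of 2 passed in any of the 3 comparisons.

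Among the members above the array median on every array, Cbx7 varied most over the 6 arrays by its brightest probe set (SD 0.41, log2). The genes with the most similar profile, of the 10163 other genes above that median, were Cacna2d1, a calcium channel subunit (Pearson's r 0.997), Fn1, which encodes fibronectin (0.996), and Prrc2a (0.993). They share the 6 arrays with Cbx7, and so many genes were compared over so few arrays that the likeness is a description only.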

How the data were processed

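The deposited values are probe-set intensity on a linear scale. RMA and Affymetrix Expression Console are listed, per the submitters' processing notes, without versions or roles. All 45101 probe sets have the same sorted values on every array (0.140 to 45795), as quantile normalization leaves them, so totals carry no depth and the number of arrays limits precision. The series text names a 430A 2.0 array; the table's own probe annotation was used. After 64 control probe sets were left out, log2 intensity was fitted for 45037 probe sets, with no pseudocount, by lmFit and eBayes of limma 3.58.1 (R 4.3.3). P-values were adjusted over all of them (Benjamini-Hochberg) at a threshold of 0.05. An intensity trend was used because the median replicate SD (log2) was 0.74 below the array median and 0.18 above it. In simulated data the spread was set by intensity alone, with no clone effect, as the trend assumes. Such data cannot choose between the fits or give the power on these arrays. With the trend, the OHT fit over 45037 simulated probe sets recovered 74% of bright ones changed by 1 (log2), with 16 false calls. Without the trend it recovered 0%, with 0 false calls. For the difference of OHT effects the fit with the trend recovered 10%. OHT and Yaf2 effects came from a model of both (3 residual degrees of freedom), their difference from a model of the 4 groups (2), where each single Yaf2wt array is taken to have the spread of the Yaf2kd groups. Clones pair OHT+ with OHT- arrays, per the labels, but the main OHT fit left the clone out. Its residuals within the Yaf2kd clones correlated at 0.09 and 0.01. The fit itself pulls such correlations below 0, so these values do not show that the pairing is without effect. Named genes were all members and, from each list of other Polycomb genes or targets, those that passed or else up to 2 with the largest difference. The cell type markers named did not all follow that rule. Members, lists and tests were chosen with earlier results of these data known.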

Additional observations from a re-analysis of the deposited data

Results flagged for a closer look

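For 3 of the 18 probe sets the OHT difference of the Yaf2wt clone lay on one side of 0 and that of both Yaf2kd clones on the other, as for 21.4% of all probe sets. For Cbx2 by its brightest probe set, 1434116_at, the Yaf2kd clones 3086 and 3087 were at -0.12 and -0.24 and the Yaf2wt clone at 0.02 (log2), a difference of -0.20 (limma p 0.538). For the dim Cbx2 probe set, 1422059_at, the Yaf2kd clones were at 0.47 and 0.78 and the Yaf2wt clone at -0.95, a difference of 1.58 (limma p 0.0791, and 0.0237 without the trend). For the dim Pcgf2 probe set, 1456330_at, the Yaf2kd clones were at -0.25 and -0.02 and the Yaf2wt clone at 0.11, a difference of -0.24 (p 0.797). The adjusted p was 1.00 for each. The 2 Cbx2 probe sets disagree in the sign of this difference. The study's groups hold 1 or 2 arrays, too few to single out an array within a group.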

How the results depend on the processing

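The count of members that passed stayed at 0 in all 3 comparisons under every alternative run, including each array left out (0 to 0 of 18), with 1 exception: with 1 probe set a gene, Phc2 passed in the OHT effect (count 1). Over all probe sets the OHT effect gave 63 calls; 0 without the intensity trend, 97 with dim probe sets left out, 101 with the clone as replicate block, 17 in the Yaf2kd arrays alone and 0 with the block and no trend, an alternative chosen after seeing the data. With 1 array left out it gave 14 to 53: 14 without the Yaf2wt OHT+ array, 17 without the Yaf2wt OHT- array, 21 and 17 without the first and second Yaf2kd OHT+ arrays. The Yaf2 effect gave 0 calls, 1 with dim probe sets left out and 0 to 8 with an array left out, the 8 without the first Yaf2kd OHT- array, and the difference of OHT effects 0 throughout. The block changed no call of a member. In the Yaf2 effect the block was random (correlation -0.09). With an array left out, the adjusted p of the brightest Phc2 probe set in the OHT effect ran from 0.162 to 0.663.

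Of 600 alternative values of single members 573 kept direction and side, 1 passed and 26 changed sign. The Yaf2 effect of the dim Cbx2 probe set was -0.75 without OHT, and that of the brightest Bmi1 probe set 0.10 with OHT. The other sign changes came with 1 array left out, and the cause was not tested. In the OHT effect those ranges were -0.15 to 0.62 (dim Cbx2), -0.34 to 0.18 (brightest Cbx7), -0.020 to 0.59 (brighter Cbx8), -0.13 to 0.057 (dim Pcgf2) and -0.054 to 0.20 (Phc1). In the Yaf2 effect they were -0.49 to 0.10 (brightest Bmi1), -0.75 to 0.83 (dim Cbx2) and -0.46 to 0.00083 (brighter Cbx8). In the difference of OHT effects they were -0.16 to 0.18 (Cbx6, second probe set), -0.042 to 0.11, -0.31 to 0.59 and -0.19 to 0.0081 (Cbx7 1420039_s_at, 1433557_at and 1449713_at), -0.38 to 0.68 (brighter Cbx8), -0.024 to 0.26 (brightest Pcgf2), -0.39 to 0.061 (Phc1), -0.23 to 0.23 (Phc2 1416048_at) and -0.11 to 0.032 (brightest Phc3). With a Yaf2wt array left out the difference of OHT effects could not be fitted.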
